A study of Caenorhabditis elegans with 6 samples.

Results

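The nematode-specific peptide genes of families a, b, c and e (nspa, nspb, nspc and nspe) were taken as every gene of Caenorhabditis elegans whose RefSeq symbol starts with 1 of these 4 names and goes on with a number. RefSeq lists 52 such genes, of which 48 had a row among the 20894 rows of the expression table: 10 nspa, 12 nspb, 18 nspc and 8 nspe genes. The 4 without a row (nspa-11, nspa-12, nspc-8 and nspc-11) are annotated as pseudogenes. The rule that picks these genes uses only symbols and no measured value. The families themselves were chosen with earlier results of these data known.

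The study compared whole worms, described as adult, of the N2 wild type and of bcf-1(ylf1). The mutant carries a mutation in the gene for BCF-1. The series title names BCF-1 as an intestinal protein with N-linked sugars that binds bacteria. Both genotypes were grown on Escherichia coli OP50, the usual laboratory food, and each was sampled in 3 biological replicates made independently. The sources used here do not give the change in the ylf1 allele, the sex of the worms or their age in days. Values were read as FPKM, a count of sequenced fragments divided by transcript length and by library size, and the sequencing depth behind them is unknown. The bcf-1 transcript itself was at 374, 412 and 499 FPKM in N2 and at 63.7, 72.1 and 60.01 FPKM in the mutant, 6.56-fold lower without overlap (log2 change -2.69, limma adjusted p = 3.65e-06).

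The nsp families were named from their sequences: each letter stands for a set of similar short proteins recognised in nematodes, and for most of them no function has been established. Many are found side by side as tandem copies, so a read from one copy can match another. A further family, nspd, lies outside the set described here and is known for expression in sperm.

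The families differ in gene structure and place (RefSeq positions and Ensembl gene models, both on WBcel235). All 18 nspc genes with a row lie on chromosome X, in 3 runs of neighbouring copies: 7 genes from nspc-1 to nspc-7 (8534672 to 8542283), 6 genes with a row between nspc-8 and nspc-15 (12342289 to 12361159) and 5 genes from nspc-16 to nspc-20 (14523575 to 14530207). Each of the 18 has 2 exons. In the 13 genes of the first and second runs the protein has 101 amino acids and the first coding exon holds the start codon alone, 3 nucleotides. In the 5 genes of the third run the protein has 103 amino acids and the first coding exon has 6 nucleotides. Copies stand on both strands within each run. The nspb genes have 2 exons and encode 79 to 86 amino acids, in 2 runs on chromosomes II and IV and at 3 single sites. The 8 nspe genes form 1 run on chromosome II (12612518 to 12629384) and encode 71 to 75 amino acids. The nspa genes with a row have a single exon and encode 34 amino acids, and 9 of the 10 lie on chromosome V between 14750353 and 14891186.

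The annotation gives some copies the same name. Ensembl gives 1 shared name to the loci of nspa-1 and nspa-3, of nspa-4 and nspa-5, of nspa-6 and nspa-7, and of nspc-2 and nspc-6. Each of these loci has its own gene model, and a name does not show whether reads were shared. The values of these 8 genes are taken here as uncertain one by one. The sources used here do not say how reads of similar copies were divided. In the table nspa-6 and nspa-7 had the same values in each N2 library, at 0, 0.000388 and 0.000614 FPKM in replicates 1, 2 and 3. Of the 288 values of the 48 genes, 10 lay above 0 and below 0.01 FPKM, while the lowest of the other values above 0 was 0.0316 FPKM.

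The comparison of bcf-1(ylf1) with N2 showed that the nspc family was higher in the mutant, in 16 of its 18 genes. Changes were tested with limma on log2(FPKM + 1) for the 13576 genes that reached 1 FPKM in 3 or more libraries, and a gene was called where its Benjamini-Hochberg adjusted p over all of these was under 0.05. Of the 48 nsp genes, 29 could be tested: 19 were higher, 1 was lower and 9 were not called. The 19 were 16 of 18 nspc genes and 3 of 4 tested nspa genes, and the lower one was nspe-5. Of the 4 tested nspb genes, 0 were called in limma, and 0 had an unadjusted p under 0.05. Among all tested genes 34.6% were called higher and 15% lower, 49.6% in all. The background is broad and depends on scaling: 4703 genes rose and 2035 fell as deposited, against 3022 and 3191 after median-ratio scaling, and the log2 change had a median of 0.24 as deposited and -0.01 after that scaling. Log2 changes are given as the mutant mean minus the N2 mean of log2(FPKM + 1). This scale understates the changes of low genes, and values can be read against the 0.24.

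nspc-12 (F42F12.10; chromosome X, 12356194 to 12356681, minus strand) had the largest rise of the 29 tested nsp genes by log2 change. Its values were 2.66, 4.14 and 3.56 FPKM in the N2 libraries and 29.4, 27.7 and 24.5 FPKM in the mutant libraries. Every mutant library lay far above every N2 library, and the spread within each genotype was small beside the gap. The mean rose from 3.45 ± 0.747 to 27.2 ± 2.48 FPKM (SD, n = 3 each), 7.87-fold, with a log2 change of 2.67 (SE 0.17, limma adjusted p = 8.53e-06; 2.44 relative to the median of all genes). This was the 79th largest rise among the 13576 tested genes. Both ranks belong to the log2(FPKM + 1) scale. With 0.1 in place of 1 added to FPKM, the log2 change was 2.96 for nspc-12 and 3.66 for nspc-2. By ratio of means nspc-16, with 11.5-fold, was above nspc-12. Compared with all tested genes in the same library, nspc-12 went from the lower part of the range in N2 (percentiles 19.9 to 29.7) to the upper part in the mutant (percentiles 67.6 to 73.6).

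**Figure D1:**
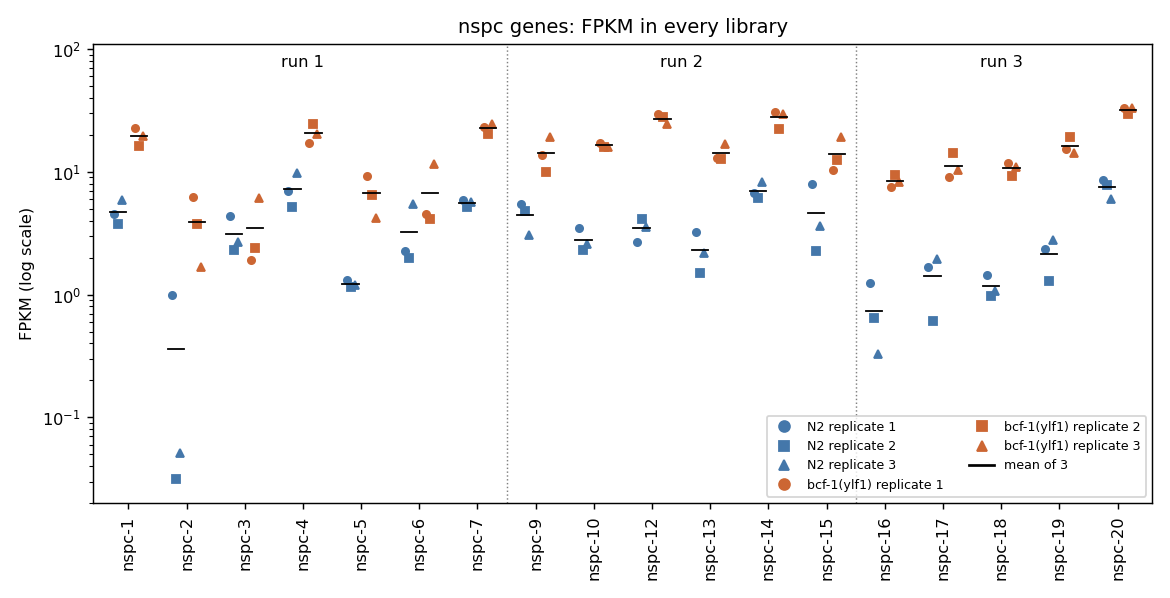
FPKM of the 18 nspc genes in each of the 6 libraries on a log scale, with N2 in blue, bcf-1(ylf1) in orange, marker shapes for replicate numbers, bars for means of 3 and dotted lines between the 3 runs. In 16 genes all mutant points lie above all N2 points, and in nspc-3 and nspc-6 they overlap.

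By the mean over all 6 libraries the most abundant nspc genes were nspc-20 and nspc-14, although in N2 alone nspc-4, with a mean of 7.31 FPKM, stood above nspc-14, with 7.01 FPKM. nspc-20 (D1025.4) stood at 8.65, 7.82 and 6.03 FPKM in N2 and at 33.4, 29.5 and 33.2 FPKM in the mutant. nspc-14 (F42F12.7) stood at 6.70, 6.13 and 8.20 FPKM in N2 and at 30.9, 22.5 and 29.7 FPKM in the mutant. In both the genotypes were well apart, with means 4.27-fold and 3.95-fold higher in the mutant and log2 changes of 1.97 (SE 0.16, adjusted p = 2.47e-05) and 1.84 (SE 0.17, adjusted p = 5.53e-05). nspc-20 made up 12.1% of the summed nspc FPKM in N2 and 11.6% in the mutant as a mean over libraries, so its share stayed close while the sum rose.

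The third run rose most as a whole, and in it nspc-16 had the largest ratio of means of the called nspc genes. nspc-16 (D1025.6) was near or under the filter of 1 FPKM in N2, at 1.23, 0.640 and 0.327 FPKM, and reached 7.53, 9.42 and 8.32 FPKM in the mutant, 11.5-fold. nspc-18 (D1025.7) went from 1.46, 0.975 and 1.07 FPKM to 11.9, 9.23 and 10.9 FPKM, 9.15-fold. nspc-19 (D1025.9) went from 2.34, 1.28 and 2.78 FPKM to 15.3, 19.3 and 14.2 FPKM, 7.62-fold. No library of either genotype crossed into the range of the other in these 3 genes. Their log2 changes were 2.47, 2.43 and 2.48 (SE 0.20, 0.16 and 0.21, adjusted p = 2.66e-05, 1.04e-05 and 3.65e-05). Together the 5 genes of the run summed to 11.3 to 15.4 FPKM in N2 and 76.9 to 81.5 FPKM in the mutant, 6.07-fold.

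The second run, which includes nspc-12 and nspc-14, summed to 21.1 to 29.5 FPKM in N2 and 101 to 125 FPKM in the mutant, 4.62-fold. nspc-10 (F42F12.9) had mutant values close together, at 17.3, 16.05 and 15.8 FPKM, against 3.47, 2.33 and 2.60 FPKM in N2. nspc-13 (F42F12.6) stood at 13, 12.8 and 16.9 FPKM in the mutant and at 3.24, 1.5 and 2.17 FPKM in N2. The genotypes were separate in both genes, with log2 changes of 2.20 (SE 0.16, adjusted p = 1.61e-05) and 2.23 (SE 0.21, adjusted p = 6.32e-05). nspc-15, also called higher (log2 change 1.5, adjusted p = 0.0078), had a less even background in N2, where replicate 1 was at 7.97 FPKM and the others at 2.25 and 3.62 FPKM. It overlaps F19H6.6 on the same strand, which was itself higher in the mutant with a log2 change of 1.65, so reads of these genes may be mixed.

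The first run rose least and was the most uneven, with a sum of 19.5 to 30.8 FPKM in N2 and 77.9 to 88.0 FPKM in the mutant, 3.27-fold. nspc-7 (C03G5.2) was at 5.92, 5.14 and 5.67 FPKM in N2 and at 23.2, 20.2 and 24.6 FPKM in the mutant. nspc-1 (C03G5.8) was at 4.52, 3.77 and 5.91 FPKM in N2 and at 22.7, 16.2 and 19.4 FPKM in the mutant. Both were clearly separated, with log2 changes of 1.85 (SE 0.14, adjusted p = 2.08e-05) and 1.84 (SE 0.19, adjusted p = 9.09e-05). The run also holds the 2 nspc genes that were not called. nspc-3 had a mean of 3.14 ± 1.10 FPKM in N2 and 3.47 ± 2.30 FPKM in the mutant, and its log2 change of 0.03 had a 95% interval from -0.72 to 0.77. nspc-6 had 3.25 ± 1.95 and 6.76 ± 4.18 FPKM, with a log2 change of 0.84 (95% interval -0.05 to 1.72, adjusted p = 0.104). Without N2 replicate 3, where nspc-6 was at 5.49 FPKM, it was called higher (log2 change 1.19, adjusted p = 0.0315).

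These 2 genes sit among copies whose values moved against each other within the mutant, a set chosen after the values were seen. Across mutant replicates 1, 2 and 3, nspc-2 and nspc-5 together gave 15.6, 10.3 and 5.85 FPKM, and nspc-3 and nspc-6 together gave 6.44, 6.54 and 17.7 FPKM. The sum of all 4 was steadier, at 22.05, 16.8 and 23.5 FPKM in the mutant and 8.98, 5.47 and 9.42 FPKM in N2. Replicate 3 was thus lowest for one pair and highest for the other. Whether shared reads lie behind this was not tested. nspc-2, which shares its Ensembl name with nspc-6, was called higher (log2 change 1.81, adjusted p = 0.0036), but 2 of its N2 values were 0.0316 and 0.0510 FPKM and the other was 0.999 FPKM. It was under 1 FPKM in all N2 libraries, so it passed the filter through the mutant libraries alone.

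The remaining called nspc genes, nspc-4, nspc-5, nspc-9 and nspc-17, had log2 changes from 1.42 to 2.36 and ratios of means from 2.85 to 7.88. Over the family, the summed FPKM was 71.3, 52.0 and 66.2 in N2 and 277, 261 and 290 in the mutant, a 4.37-fold higher mean. Sums depend less on how reads were split among copies. N2 replicate 2 was the lowest N2 library in 14 of the 18 genes and N2 replicate 1 the highest in 11. The highest N2 sum, 71.3 FPKM, was still far below the lowest mutant sum. The median nspc log2 change was 1.84, against 0.24 for all tested genes. Of the 14 nspc genes at or above 1 FPKM in all N2 libraries, 12 were called higher, against 30.5% of all genes with that level in N2. All mutant libraries lay above all N2 libraries in 16 of 18 nspc genes, and in 40.4% of all tested genes. The same 16 genes were called higher in each of the 13 alternative analyses, including both other scalings and each left-out library.

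Genes of other kinds around the runs were called in both directions. Of 17 such tested genes within 20 kb of an nspc run, 3 were higher, 7 lower and 7 not called, with a median log2 change of -0.09 and a range from -1.89 to 2.02. The 3 higher ones, named after their values were seen, were zig-2, F19H6.6 and glb-13, with log2 changes of 2.02, 1.65 and 0.66, and all 3 lie by the second run. Beside the third run, 4 of 7 tested genes were lower and 0 higher. On the whole of chromosome X, 33% of 1820 tested genes were higher and 24.5% lower.

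**Figure D2:**
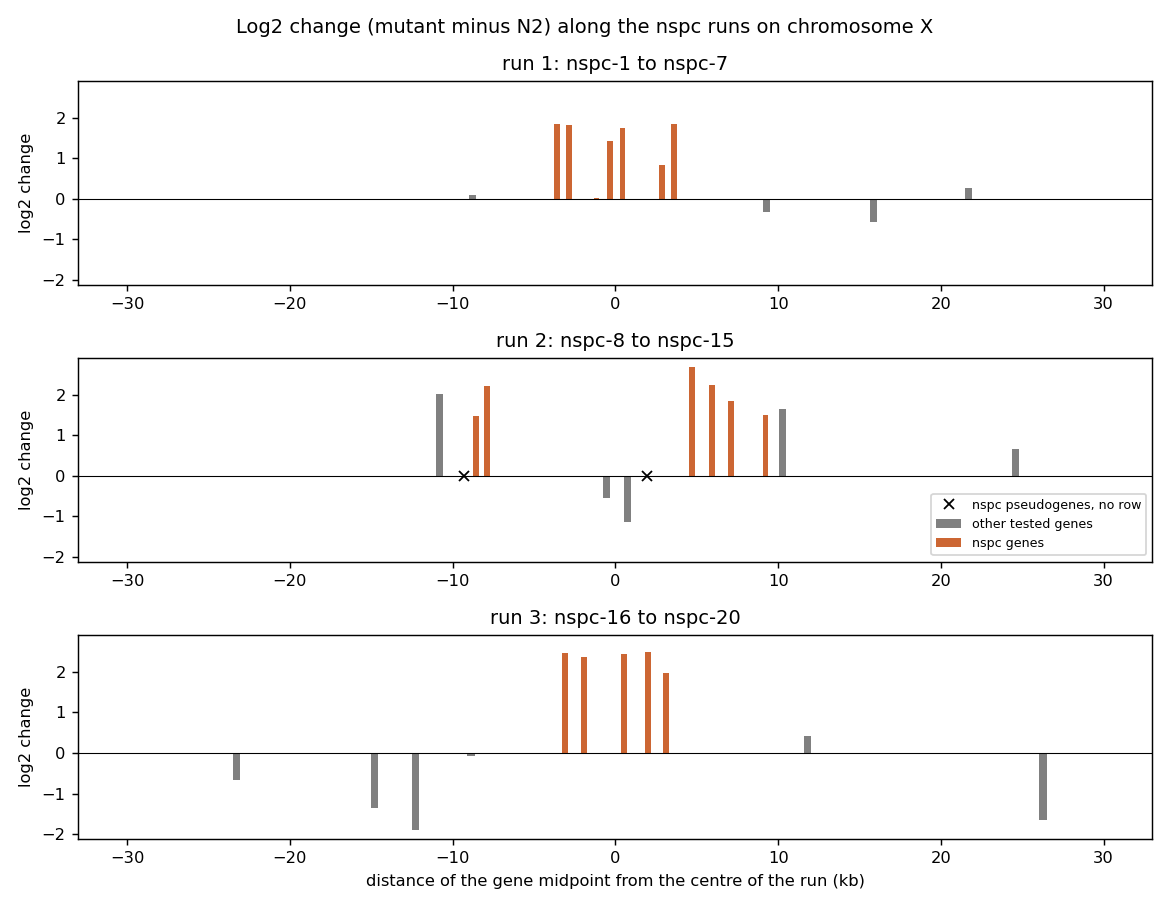
Log2 change of log2(FPKM + 1), mutant minus N2, of tested genes along the 3 nspc runs, against the distance in kb of each gene's midpoint from the centre of its run, with nspc genes in orange, other genes in grey and crosses for the 2 pseudogenes with no row. The orange bars reach up to 2.67, and the grey bars beside them go both ways, from -1.89 to 2.02.

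The nspa genes were low and only some could be tested. nspa-1 was at 3.48, 1.61 and 1.53 FPKM in N2 and at 4.66, 3.20 and 8.01 FPKM in the mutant. nspa-3 was at 3.07, 1.55 and 1.51 FPKM in N2 and at 4.03, 2.73 and 6.75 FPKM in the mutant. In both genes N2 replicate 1 exceeded mutant replicate 2, so the genotypes overlapped. In every library the ratio of nspa-1 to nspa-3 lay between 1.01 and 1.19. Their sum was 6.55, 3.16 and 3.04 FPKM in N2 and 8.69, 5.92 and 14.8 FPKM in the mutant, and it overlapped too. Whether these 2 copies share reads was not tested, so their calls may not be separate. nspa-8 was at 1.79, 1.58 and 0.680 FPKM in N2 and at 2.37, 2.37 and 2.99 FPKM in the mutant, with no overlap. It lies within W06A7.4 on the other strand, a gene with a log2 change of -0.75. The log2 changes were 0.95 for nspa-1, 0.83 for nspa-3 and 0.64 for nspa-8 (SE 0.31, 0.29 and 0.20, adjusted p = 0.0303, 0.0390 and 0.0272). These 3 calls were fragile: all were lost after median-ratio scaling (adjusted p = 0.0501, 0.0702 and 0.0731), after quantile normalisation, without a filter, and without N2 replicate 3 or mutant replicate 1 or 3. Without N2 replicate 2, nspa-8 alone stayed called. nspa-5, the fourth tested, had a log2 change of 0.49 (adjusted p = 0.116), and 0.71 with a call without N2 replicate 1 (adjusted p = 0.0275). Of the 6 not tested, whose levels complete the account of the family, nspa-10 was listed at 0 in all libraries and nspa-2 at 0 in all N2 libraries, with 0.464, 0.0997 and 0 FPKM in the mutant. nspa-9 was at 0.1 FPKM in N2 replicate 2 and at 0 elsewhere, and nspa-4 was at 0.830 to 0.976 FPKM in N2 and 0.975 to 2.19 FPKM in the mutant.

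**Figure D3:**
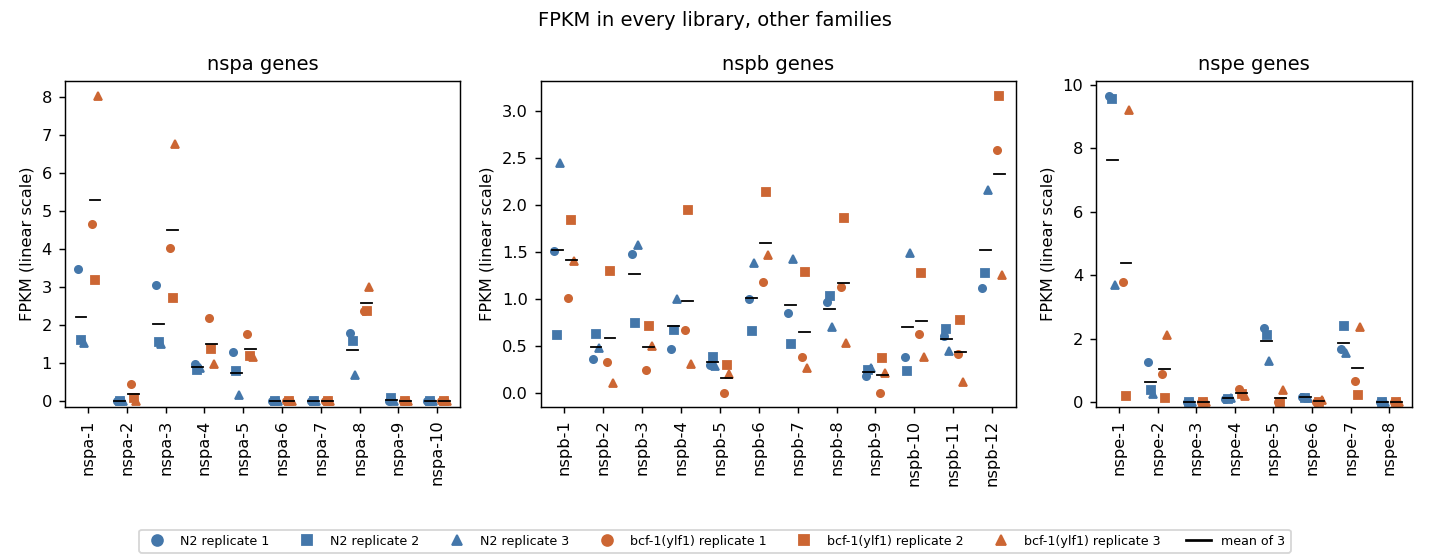
FPKM on a linear scale of the nspa, nspb and nspe genes in each library, with N2 in blue, bcf-1(ylf1) in orange, marker shapes for replicate numbers and bars for means of 3. Values stay under 10 FPKM, mutant replicate 2 (orange squares) is the highest mutant library in all 12 nspb genes, and nspe-1 runs from 0.188 to 9.22 FPKM within the mutant.

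The nspb genes gave no call in the fit as deposited, and 8 of the 12 were too low to test. nspb-12, which had the highest mean over all 6 libraries, was at 1.11, 1.27 and 2.16 FPKM in N2 and at 2.58, 3.16 and 1.26 FPKM in the mutant. nspb-1 was at 1.5, 0.615 and 2.45 FPKM in N2 and at 1.01, 1.83 and 1.40 FPKM in the mutant. nspb-6 was at 0.995, 0.660 and 1.38 FPKM in N2 and at 1.18, 2.14 and 1.46 FPKM in the mutant. In all 3 the genotypes overlapped, with 95% intervals of the log2 change from -0.17 to 0.94, from -0.60 to 0.58 and from -0.05 to 0.78. nspb-12 was called higher without mutant replicate 3 (log2 change 0.64, adjusted p = 0.0357). nspb-3, singled out after its values were seen, was the single nspb gene in which every mutant library (0.248, 0.708 and 0.503 FPKM) lay below every N2 library (1.47, 0.743 and 1.57 FPKM). It failed the filter, and was called lower when the filter was relaxed or dropped. The nspb genes instead varied by library: mutant replicate 2 was the highest mutant library in all 12 and N2 replicate 3 the highest N2 library in 8. Their sum was 9.18, 7.67 and 13.6 FPKM in N2 and 8.55, 16.9 and 6.74 FPKM in the mutant, so the spread within the mutant was larger than the difference between the means of 10.2 and 10.7 FPKM. nspb-1 and nspb-2 overlap irld-7 (log2 change 0.65), and reads may be shared there.

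The nspe run held the single lower call. nspe-5 (Y38E10A.16; chromosome II, 12628866 to 12629384) was at 2.34, 2.12 and 1.32 FPKM in N2, listed at 0 in mutant replicates 1 and 2, and at 0.385 FPKM in mutant replicate 3. All mutant values lay below all N2 values, with a log2 change of -1.37 (SE 0.18, adjusted p = 0.000373). It was called lower in all 13 alternatives, and with a pseudocount of 0.1 the log2 change was -3.54. Since it was under 1 FPKM in every mutant library, it passed the filter through N2 alone. nspe-1, the most abundant nspe gene, was at 9.64, 9.55 and 3.70 FPKM in N2 and at 3.79, 0.188 and 9.22 FPKM in the mutant. nspe-7 was at 1.68, 2.40 and 1.54 FPKM in N2 and at 0.672, 0.235 and 2.38 FPKM in the mutant. In both genes mutant replicate 3 lay within the range of the N2 values and mutant replicate 2 was the lowest of all libraries, and in nspe-1 mutant replicate 1 lay just inside that range. Neither was called (log2 change -1.06, adjusted p = 0.223, and -0.58, adjusted p = 0.166), and both were called lower without mutant replicate 3 (log2 change -1.76, adjusted p = 0.0294, and -0.99, adjusted p = 0.00342). Of the others, nspe-3 and nspe-8 were listed at 0 in all libraries. nspe-4 was at 0.108 to 0.151 FPKM in N2 and 0.205 to 0.407 FPKM in the mutant, and nspe-6 at 0.146 to 0.167 FPKM in N2 and 0 to 0.0886 FPKM in the mutant. nspe-7 was also called lower after quantile normalisation (log2 change -0.90, adjusted p = 0.0346). Within the nspe run lies Y38E10A.14, a gene of another kind named here after its values were seen, with means of 72.03 FPKM in N2 and 7.82 FPKM in the mutant and a log2 change of -3.07 (adjusted p = 6.16e-06). Most genes of other kinds near the run went the other way. Of 7 such tested genes within 20 kb, 5 were higher and 2 lower, with a median log2 change of 0.63.

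**Figure D4:**
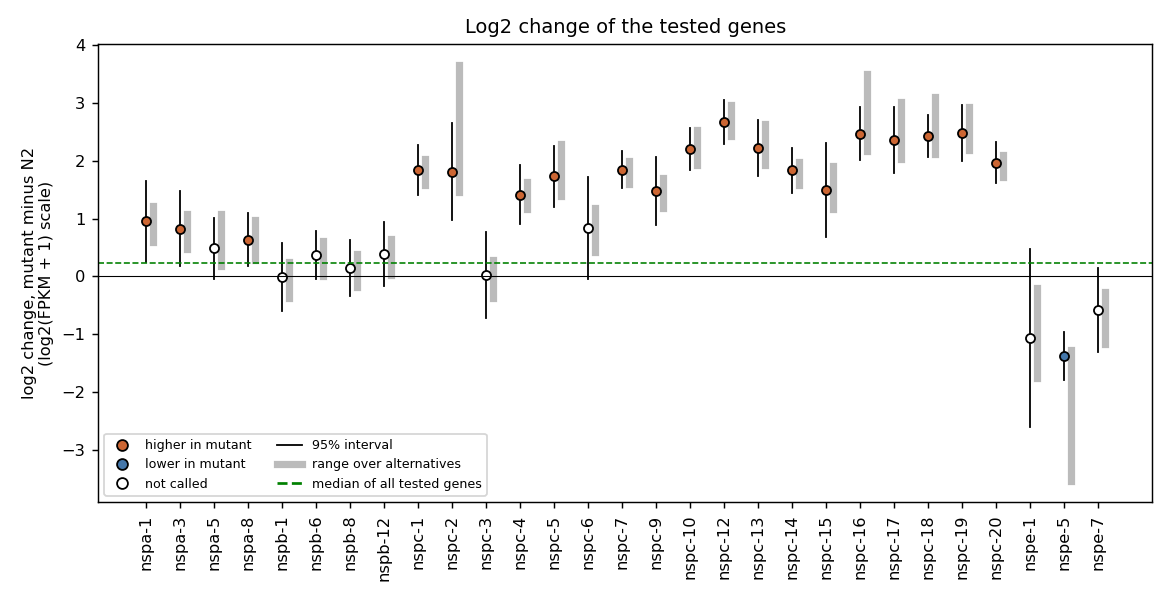
Log2 change of log2(FPKM + 1), mutant minus N2, of the 29 tested nsp genes, with points coloured by call, black lines for 95% intervals, grey bars for the range over the analysis as deposited and its 13 alternatives, and a dashed line at the median of all tested genes, 0.24. Called nspc genes lie between 1.42 and 2.67, the nspa genes between 0.49 and 0.95, and the nspe genes between -1.37 and -0.58.

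**Figure D5:**
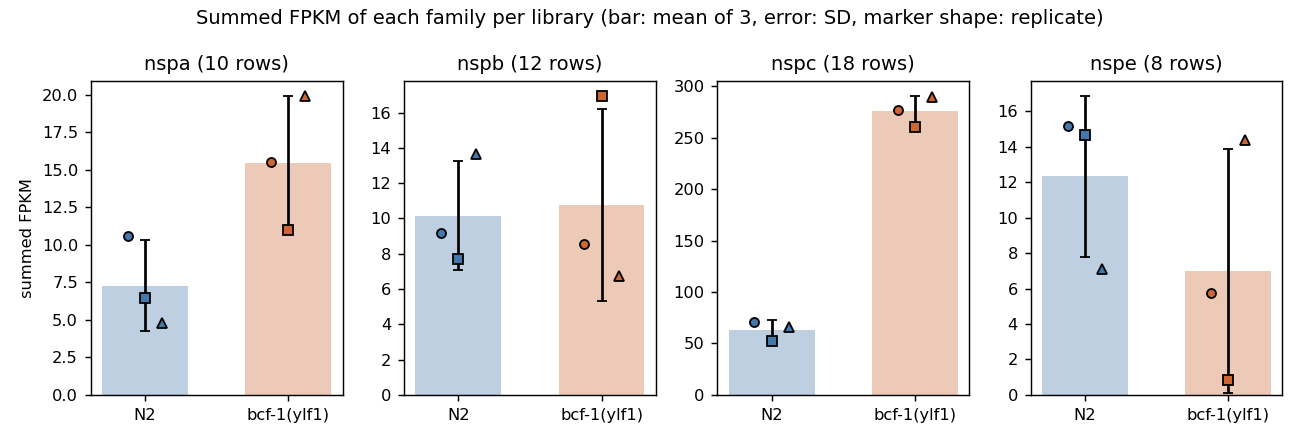
Summed FPKM of each family in each library, with bars for the mean of 3, error bars for the SD and marker shapes for replicate numbers, each panel on its own linear scale from 0. The nspc sums are 52.0 to 71.3 FPKM in N2 and 261 to 290 FPKM in the mutant, while the N2 and mutant sums overlap in the nspb and nspe families.

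Without a filter, 45 of the 48 genes had a value above 0 in some library and were tested: 17 were higher and 3 lower, against 27% and 11.6% of the 19295 genes tested that way. The 17 were the same 16 nspc genes and nspe-4, and the lower ones were nspb-3, nspe-5 and nspe-6. Over these 45 genes, every mutant library was above every N2 library in 19 and below in 3, against 34.9% and 15% of the 19295. Some of these lay at very low values over all libraries. The 19 include nspa-6, at 0 to 0.0028 FPKM, and nspe-4, at 0.108 to 0.407 FPKM. The 3 include nspe-6, at 0 to 0.167 FPKM.

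Other families of small peptides are set beside these for comparison. Of 9 tested nspd genes, 1 was higher and 0 lower, with a median log2 change of 0.43. The summed FPKM of all 10 nspd genes with a row was 116 to 178 in N2 and 188 to 207 in the mutant. Of 9 tested genes of the fungus-induced peptide families fip and fipr, 4 were higher and 1 lower. Their log2 changes ran from -1.54 to 3.09, with a median of 0.44. The 3.09, of fipr-2, named after its values were seen, was above the 2.67 of nspc-12. Of 4 tested caenacin (cnc) genes, which encode antimicrobial peptides of the epidermis, 1 was higher and 0 lower. These 4 had log2 changes from -0.46 to 1.80, with a median of 0.07. Among all tested genes 34.6% were called higher and 15% lower. The difference between these families and nspc was not tested.

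The libraries also differed in markers of tissues, given here as whole lists. Counts are of tested genes and can be read against 34.6% higher and 15% lower among all tested genes. Summed FPKM covers every gene of a list with a row, tested or not. Among 7 pharyngeal muscle genes 6 were higher and 0 lower (summed FPKM 54.7 to 66.5 in N2 and 255 to 282 in the mutant), and among 5 tested pharyngeal gland genes 5 were higher (39.1 to 60.7 and 132 to 196). Of 16 hypodermis and cuticle genes 11 were higher and 3 lower (3452 to 4447 and 4995 to 5202), and of 13 intestine genes 2 were higher and 8 lower (9392 to 11491 and 9132 to 11115). The 3 lower cuticle genes were col-7, col-62 and col-19, with log2 changes of -6.55, -6.64 and -5.42. In that list dpy-10, fbn-1, dpy-7, noah-1, bli-1 and mlt-10 rose most, with log2 changes of 2.93, 2.68, 2.65, 2.24, 2.11 and 2.07. In the intestine list, vit-2 and vit-6 had log2 changes of -6.76 and -6.81, and the largest rise was 1.90. These genes were named after their values were seen. The worms are described as adult, but whether the genotypes were at the same developmental stage was not tested. Whether stage bears on the nspc rise was not tested either. Sperm development (spe) genes were higher in 24 of 32 (201 to 296 and 417 to 518), major sperm protein genes in 3 of 30 (2226 to 3593 and 2939 to 3859) and germline genes in 5 of 10 (404 to 715 and 717 to 784), with 0 lower in each. Body wall muscle genes were higher in 5 of 10 (4591 to 5692 and 5523 to 6288) and neuronal genes in 1 of 9 (408 to 445 and 465 to 519), also with 0 lower. No marker of a tissue list was at 0 in all libraries. Their part in the nspc rise was not tested, and in whole worms more cells of a type and more RNA per cell cannot be told apart.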

How the data were processed

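RNA of whole C. elegans, described as adult, of 2 genotypes, N2 and bcf-1(ylf1), was sequenced in 3 libraries each. The table deposited by the authors holds 1 FPKM value per gene and library, already normalised to transcript length and library size. The unit is not named by them, and was read from the values, which are not whole and sum to totals that differ between libraries. TPM with rows left out cannot be told apart from this. The submitters' processing notes name fastp and the build WBcel235. The aligner, the quantifier and whether strand was used were not stated in the sources read, and the depth is unknown. Columns were matched to samples by their labels, and rows to RefSeq symbols by locus tag. Gene models came from Ensembl release 115 and were found for 52 of 52 genes, by position except for nspb-1, matched by name.

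Values were transformed as log2(FPKM + 1) for genes that reached 1 FPKM in 3 or more libraries, and fitted with limma 3.58.1 in R 4.3.3, with genotype as the only term and a mean-variance trend. Tests were two-sided with Benjamini-Hochberg adjustment at 0.05. Fits that left out a library kept the same 13576 genes. The members and gene lists were chosen with earlier results of these data known. Genes given in full were nspc-12, the 3 most abundant of each family, and the up to 10 called genes with the smallest p in each direction; the others are given by ranges, or by single values where these were noticed afterwards or where a gene was too low to test. A planned analysis that sums genes with near-identical proteins and a planned motif search were not run, since no sequences were used here.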

Additional observations from a re-analysis of the deposited data

How the results depend on the processing

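Over 13 alternatives the number of nsp genes called higher, 19, ran from 16 to 21, and the 16 nspc genes among them kept their call in each. The number called lower, 1, became 3 without a filter, 2 with a filter at 0.1 FPKM, 2 after quantile normalisation and up to 3 when a library was left out (range 1 to 3). Over all tested genes, 3022 were higher and 3191 lower after median-ratio scaling, against 4703 and 2035. Leaving out a library gave 16 to 20 nsp genes higher, and 3459 to 5732 higher and 1663 to 2036 lower over all genes. Among values of single nsp genes under an alternative, 338 kept direction and call, 20 lost a call, all of nspa-1, nspa-3 and nspa-8, 8 gained one, and 11 changed sign, all of genes with no call under either setting. The 11 were log2 changes of nspc-3 (0.03 as deposited; -0.17 after median-ratio scaling, -0.33 after quantile normalisation, and -0.37 to 0.28 over the fits that left out a library), nspb-8 (0.15; -0.18 after quantile normalisation, and -0.071 to 0.38 with a library left out) and nspb-1 (-0.01; 0.048 with a pseudocount of 0.1, and -0.30 to 0.25 with a library left out). The log2 change of nspc-2 was 3.66 with a pseudocount of 0.1, against 1.81. With the replicate number as a replicate block, 21 nsp genes were higher (nspa-5 and nspc-6 added) and 1 lower, with 4309 and 1863 over all genes. Across genes, the deviations of same-numbered libraries had correlations of 0.00972, -0.0737 and -0.277, against -0.195 to 0.336 for the other pairs. With 3 libraries per genotype, this check cannot decide whether same-numbered libraries share a batch. Depth is unknown, and values near 1 FPKM, which include nearly all nspb genes, may rest on few reads. The planned sum over genes with near-identical proteins was not run.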
